A study of Caenorhabditis elegans with 2 samples.

Results

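Transfer RNA (tRNA) genes of Caenorhabditis elegans were examined for occupancy by the transcription factor MXL-2, which belongs to the Max-like proteins with a basic helix-loop-helix and a leucine zipper. The members were all 612 genes of biotype tRNA on the 6 nuclear chromosomes in the Ensembl annotation of the ce11 genome, out of 46890 annotated nuclear genes. The choice used no measured value. Binding had been mapped by chromatin immunoprecipitation and sequencing (ChIP-seq) in whole L4 larvae, 48 h old, of strain RW12316. This strain carries a CRISPR insertion at mxl-2 that adds TY1, EGFP and 3xFLAG to the protein. Chromatin was pulled down with anti-GFP, although the antibody field of the labels names mxl-2. The series held 1 group with 2 biological replicates, so no condition, genotype or stage could be compared, and whole larvae mix the nuclei of all their tissues. A possible control experiment was not analysed here.

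tRNAs carry amino acids to the ribosome and pair with codons through their anticodon. Their genes are short, lie in many copies and are transcribed by RNA polymerase III. Its promoter elements, the A box and the B box, lie inside the transcribed sequence, where the factor TFIIIC binds them, and transcription ends at a run of T downstream of the gene. Proteins of the Max and Mlx families bind as dimers to the E-box CACGTG, and MXL-2 is the Mlx-like partner of MML-1 in this worm.

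The genes had a median length of 72 bp (range 64 to 122), and 276 of them (45.1%) lay on X, which makes up 17.7% of the genome length. Chromosomes I, II, III, IV and V held 66, 57, 64, 71 and 78. An amino acid was annotated for 607 genes and undetermined for 5, and no anticodon was annotated. The 612 genes had 200 distinct sequences. Copies were counted among these genes only. An identical copy existed for 469 genes, whereas 143 sequences were found once, and the largest family held 29 identical glycine (Gly) genes. The 50 bp upstream were unique in the genome for 590 genes, and at least 1 of both flanks was unique for 608. Of all tRNA genes, 287 (46.9%) lay in introns of other genes, 95 of 276 on X (34.4%) and 192 of 336 on autosomes (57.1%).

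The sequences below come from genes named in this report with strong regions, weak regions or no region, but not from the gene with the highest signal. Most of them show the internal promoter element that most tRNA genes carry. Each runs 5′ to 3′ on the gene strand, from the gene's first base through its last and 20 bases more, as read from RefSeq's copy of the ce11 genome. Capitals mark the B box match GTTCNA nearest to its usual place in the gene and, in the 20 bases downstream, runs of 4 or more T. The first 6 belong to genes with strong regions, in falling order of signal.

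C04A11.t1: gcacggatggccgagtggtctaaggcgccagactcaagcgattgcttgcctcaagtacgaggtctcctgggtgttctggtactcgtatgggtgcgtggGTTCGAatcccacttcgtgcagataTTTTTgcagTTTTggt
C16B8.t2: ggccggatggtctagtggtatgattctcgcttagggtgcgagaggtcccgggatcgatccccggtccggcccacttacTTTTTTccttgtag
F44A2.t1: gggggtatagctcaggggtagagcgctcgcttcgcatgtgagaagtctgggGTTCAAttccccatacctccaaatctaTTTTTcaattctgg
F15G9.t1: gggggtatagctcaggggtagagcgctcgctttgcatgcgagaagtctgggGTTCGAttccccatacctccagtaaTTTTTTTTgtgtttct
F15G9.t2: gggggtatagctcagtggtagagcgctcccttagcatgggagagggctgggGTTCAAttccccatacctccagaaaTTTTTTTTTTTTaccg
T23F1.t1: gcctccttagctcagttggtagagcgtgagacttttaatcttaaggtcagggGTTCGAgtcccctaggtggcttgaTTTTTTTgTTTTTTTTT

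These genes lie at chrX:13665555-13665673 (C04A11.t1, leucine), chrX:3970096-3970167 (C16B8.t2, proline), chrV:9318202-9318273 (F44A2.t1, alanine), chrX:9743589-9743660 and chrX:9743747-9743818 (F15G9.t1 and F15G9.t2, both alanine) and chrV:15465086-15465158 (T23F1.t1, lysine), all on the plus strand. In C04A11.t1 the B box match starts at base 99, and in the other genes with a match it starts at base 52 or 53. C16B8.t2 has no GTTCNA match. The next pair shares the weakest region at a tRNA gene, and the last pair contrasts a glutamine (Gln) gene that had a region with one that had none.

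C52E12.t2: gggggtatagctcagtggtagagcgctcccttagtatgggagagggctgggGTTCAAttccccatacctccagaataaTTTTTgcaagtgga
C52E12.t3: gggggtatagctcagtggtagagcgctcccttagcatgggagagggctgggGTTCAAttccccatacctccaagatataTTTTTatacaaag
H35N09.t2: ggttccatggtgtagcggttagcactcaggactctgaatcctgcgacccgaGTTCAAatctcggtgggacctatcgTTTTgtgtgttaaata
R04A9.t1: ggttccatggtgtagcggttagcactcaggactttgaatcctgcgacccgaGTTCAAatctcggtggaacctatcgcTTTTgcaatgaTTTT

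C52E12.t2 (threonine, chrII:7003273-7003344, plus strand) and C52E12.t3 (alanine, chrII:7002993-7003064, minus strand) point away from each other inside the gene unc-104. H35N09.t2 lies at chrX:8608834-8608905 on the minus strand and R04A9.t1 at chrX:410391-410462 on the plus strand. With positions counted from 1 at the 5′ end of the gene, C52E12.t3 and C52E12.t2 differ by 1 substitution, C35T, and R04A9.t1 and H35N09.t2 differ by 2, T34C and A68G. The gene sequences of C52E12.t3 and F15G9.t2 are identical.

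The authors deposited, per replicate and for both together, a ranked list of candidate peaks and a list of those that passed a threshold on the irreproducible discovery rate (IDR), the estimated chance that a candidate does not repeat between the 2 sets of peaks compared. In the conservative pair those sets carry the replicates' own signals, with exact matches for 51.1% of candidates in replicate 1 and 52.2% in replicate 2. In the whole-experiment list the matches were 2.46% and 2.30%, so the sets compared there are not the replicates and their origin is not known here. The same holds for each replicate's list, and an IDR in these lists does not measure repeatability between the 2 replicates. Overlapping lines of a thresholded list were joined and are called regions. The whole-experiment list held 968 regions, the conservative list 993, and the lists of replicates 1 and 2 held 448 and 454. The deposited signal is an enrichment as the authors' peak caller wrote it. The ranked whole-experiment and conservative lists share their lowest and highest signals (2.55 and 2040.1), whereas the replicates' ranked lists reach 1016 and 1042. Levels are therefore compared within a list. The files hold no read counts and the depth of the libraries is unknown. Intervals on shares are exact (Clopper-Pearson) 95% intervals over genes or regions and cover counting error only. The whole-experiment and conservative lists draw on the same 2 replicates and are not further evidence beside them.

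A region overlapped 147 of the 612 tRNA genes (24.0%, interval 20.7% to 27.6%) in the whole-experiment list. Over all 46890 annotated nuclear genes the share was 1.96%. In the conservative list 156 tRNA genes had a region, against 2.04% of all genes. Replicates 1 and 2 had 71 tRNA genes each (11.6% ± 0, SD, n = 2), against 0.934% and 0.909% of all genes. Counted by the first base of the gene alone, a count that does not depend on gene length, 144 tRNA genes (23.5%) were in a region, against 1.02% of all genes.

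The tRNA share was also above that of each other gene class counted in the whole-experiment list. The closest were small nucleolar RNA genes, which guide RNA modification, with 44 of 346 (12.7%, 9.39% to 16.7%), and small nuclear RNA genes, which include the RNAs of the spliceosome, with 12 of 129 (9.30%, 4.90% to 15.7%). Protein-coding genes had 462 of 19973 overlapped (2.31%), or 0.441% by first base. Of other RNA classes with short genes, 1 of 261 microRNA genes had a region and none of 20 ribosomal RNA genes, which leaves an upper bound of 16.8% for the last. Genes of biotype piRNA, with a median length of 21 bp, had 5 of 15363 (0.0325%). They are part of the 46890 annotated genes and lower the shares over all genes.

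The genes fell into 136 regions, or 14.05% of the 968, with 125 regions at 1 tRNA gene and 11 at 2. Most summits lay on the genes themselves, although regions taken by their overlap with a gene have summits near it by construction. The median summit was 24.5 bp downstream of the first base of the nearest tRNA gene (quartiles 7 and 45 bp), 105 of 136 summits (77.2%, 69.2% to 84.0%) were inside the gene, 23 were upstream of it and 8 downstream. In the replicates' own lists the median position was 17 bp (replicate 1, 63 regions) and 24 bp (replicate 2, 66 regions). There 42 summits (66.7%) in replicate 1 and 53 (80.3%) in replicate 2 were inside the gene. With a median region width of 260 bp, summits cannot separate the A box from the B box.

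**Figure D1:**
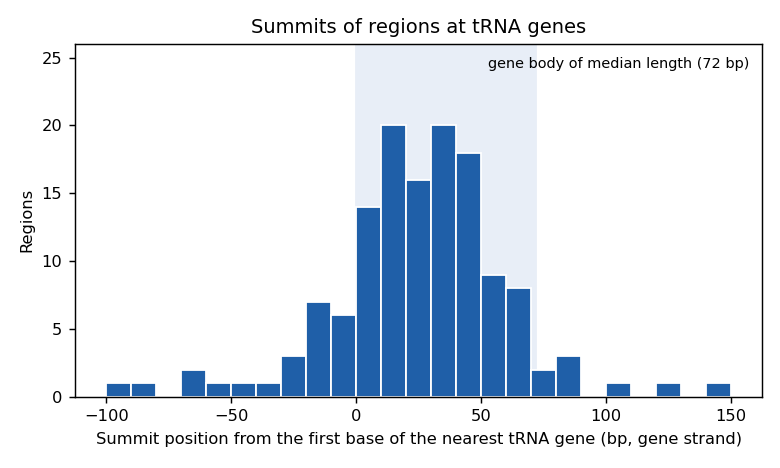
Number of regions of the whole-experiment list (y axis) by the distance of the summit from the first base of the nearest tRNA gene in bp (x axis, gene strand, bins of 10 bp), with the median gene length of 72 bp shaded. Of 136 summits, 105 lie inside the gene they are nearest to, and the median is 24.5 bp.

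Signals at tRNA genes were narrow in range. Regions at tRNA genes had signals of 51.5 to 164 with a median of 83.8, against 33.8 to 2040.1 with a median of 82.0 for the other 832 regions. The strongest region at a tRNA gene ranked 99th of 968. Regions were ranked by signal and divided into 4 classes of 242. From the highest class to the lowest, 26, 44, 42 and 24 regions were at tRNA genes (10.7%, 18.2%, 17.4% and 9.92%). In the replicates' own lists the highest of 4 such classes held 1 of 63 tRNA regions against 111 of 385 other regions (replicate 1) and 2 of 66 against 111 of 388 (replicate 2). The medians there were 52.0 against 61.0 in replicate 1 and 58.3 against 60.3 in replicate 2.

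None of the regions at tRNA genes had the E-box CACGTG within 50 bp of its summit, on either strand (the word is its own reverse complement). The count was 0 of 136 regions at tRNA genes (exact upper bound 2.68%) against 157 of 832 other regions (18.9%, 16.3% to 21.7%), and Fisher's exact test (two-sided, over regions, not replicates) gave p = 6.58e-12, or 1.32e-11 after Benjamini-Hochberg adjustment over the 2 tests made. The replicates' lists had 0 of 63 against 27.5% (replicate 1) and 0 of 66 against 26.3% (replicate 2). Widening the window to 250 bp gave 7 of 136 (5.15%) against 252 of 832 (30.3%). None of the 612 tRNA genes contains CACGTG, and the part of this in the difference was not tested. Of the other regions with CACGTG, 48 had signals above the strongest tRNA region, and their median signal was 112. The other 675 regions without the word had a median of 78.3, and 50 of them exceeded the strongest tRNA region.

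**Figure D2:**
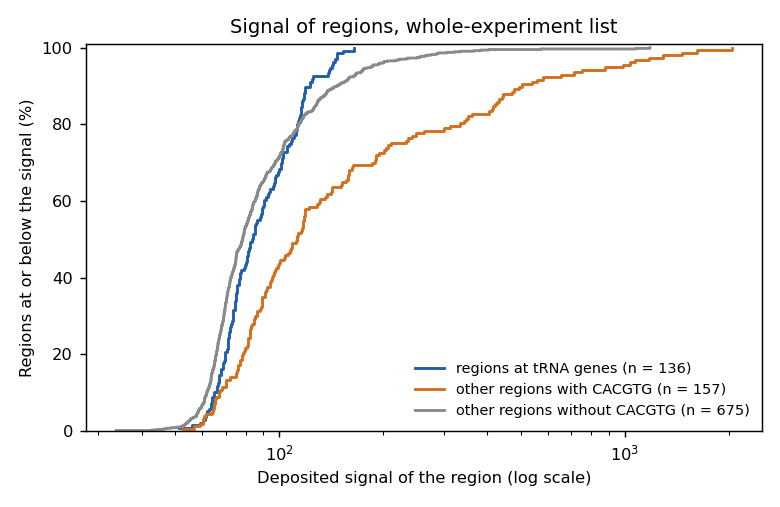
Cumulative share of regions in percent (y axis) at or below a deposited signal (x axis, log scale) in the whole-experiment list, for regions at tRNA genes (136) and for other regions with (157) and without (675) CACGTG within 50 bp of the summit. The tRNA curve ends at 164, while both other curves run on above 1000.

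The B box word GGTTCGA stood at most 50 bp from the summit in 63 of 136 regions at tRNA genes (46.3%), against 21 of 832 other regions (2.52%). The looser form GTTCNA stood in 98 (72.1%) against 160 (19.2%). Since tRNA genes carry these words, the difference describes the sequence under the summits and was not tested.

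Among the tRNA genes themselves, none of the words compared separated the genes with a region beyond the intervals of the shares. GGTTCGA was found in 395 genes (64.5%). Of these 25.1% had a region (20.9% to 29.6%), against 22.1% of the genes without it (16.8% to 28.2%). The replicates ran in opposite directions, with 13.4% of genes with the word against 8.29% without it in replicate 1, and 11.4% against 11.98% in replicate 2. GTTCNA was found in 588 genes (96.1%). Of these 24.5% had a region (21.1% to 28.2%), against 3 of 24 genes without the match (12.5%, 2.66% to 32.4%), too few genes to tell the shares apart. A 12-letter A box consensus was found in 135 genes, of which 23.0% had a region, against 24.3% of the genes without it. Another word for the core of the A box was found in 108 genes, and C04A11.t1 has that word but not the consensus. Genes without the consensus can thus carry another form of the A box, so this split does not measure its presence. Shares by the core word were not compared here. A run of 4 T within 20 bp downstream was found in 602 of 612 genes (98.4%), of which 24.3% had a region, against 1 of the 10 genes without one.

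M02F4.t1, a Gly gene at chrX:3036164-3036235 with 29 identical copies counting itself, had the highest signal of any tRNA gene. Its region had a signal of 164 in the whole-experiment list, 78.0 in replicate 1 and 87.0 in replicate 2. In the whole-experiment list that region, 109 bp wide at chrX:3036062-3036170, reached only the first bases of the gene. Its summit lay 12 bp upstream of the gene's first base. C04A11.t1 had 153 in the whole-experiment list, 63.6 in replicate 1 and 78.3 in replicate 2. C16B8.t2 had 147, with 68.0 in replicate 1 and 76.2 in replicate 2. The sequences of C04A11.t1 and C16B8.t2 occur once among the annotated tRNA genes, so these strong signals were not limited to genes with an identical annotated copy. Copies elsewhere in the genome were not searched for.

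F41D9.t3, an asparagine gene in an intron of the sulphate permease family gene sulp-3 on the opposite strand, had 147 in the whole-experiment list but a region in replicate 2 alone (103). In replicate 1 its strongest candidate reached 44.6 at an IDR of 0.0199 and missed the threshold. F44A2.t1 had 146, with 77.2 in replicate 1 and 60.1 in replicate 2. F15G9.t1 and F15G9.t2 share 1 region in an intron of him-4, which encodes the extracellular protein hemicentin, with 143 in the whole-experiment list, 65.7 in replicate 1 and 77.5 in replicate 2. Its summit lay 63 bp into F15G9.t1 and 95 bp upstream of F15G9.t2, so the signal cannot be divided between the genes.

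F52C9.t1 (threonine, chromosome III) had 142, with 83.3 in replicate 1 and 55.5 in replicate 2. C28G1.t1 (glutamate, X) had 140.4, with 72.0 in replicate 1 and 63.3 in replicate 2. C42D8.t1 (isoleucine, X) had 139, with 72.5 in replicate 1 and 66.3 in replicate 2. Among these 10 strongest genes, 8 different amino acids occur, and 9 genes had a region in both replicates' lists. The order of these genes differed between the replicates' lists, as F52C9.t1 and F44A2.t1 stood above C04A11.t1 in replicate 1 and below it in replicate 2.

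The leading genes of other amino acids had lower signals. T23F1.t1 (lysine) had 138, with 67.8 in replicate 1 and 68.3 in replicate 2. Its region overlaps 2 tRNA genes, and the summit lay 83 bp downstream of its first base, past the end of this gene of 73 bp. This signal therefore cannot be assigned to T23F1.t1 alone. C02B4.t2 (tyrosine), in an intron of the nuclear receptor gene nhr-17, had 125, and T15B12.t1 (methionine) had 119. R04D3.t2 (valine) had 118, as did the tryptophan gene sup-5, known from nonsense suppressor mutations, which lies in an intron of fli-1 and had 56.6 in replicate 1 and 68.0 in replicate 2. M57.t1 (arginine, in unc-33) had 116, C53C7.t1 (serine) 115 and T28C12.t1 (cysteine) 114. The region of C53C7.t1 is shared with C53C7.t2. Its summit lay 103 bp upstream of C53C7.t1 and 28 bp upstream of C53C7.t2, so its signal cannot be divided between them. The leading genes of phenylalanine (T28B4.t1, 100.2), histidine (C06G1.t1, 97.7), aspartate (F38G1.t2, 85.8) and glutamine (H35N09.t2, 85.2) were the lowest of the leaders. F38G1.t2 had a region in neither replicate's list, with candidates of 38.7 in replicate 1 and 46.6 in replicate 2.

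At the threshold, the lowest genes in the list were C52E12.t2 and C52E12.t3 with 51.5 for their shared region, whose summit lay upstream of both, followed by F47G6.t1 (56.1), C05G6.t1 (58.9) and F25F6.t1 (60.1). The 5 highest genes in no thresholded list were K02D7.t1 (aspartate, 74.0 at an IDR of 0.0173), W02H3.t1 (leucine, 65.8), M01E10.t2 (glutamate, 65.4), F58D5.t1 (valine, 64.4) and R04A9.t1 (64.1). These signals overlap because the lists are cut on the IDR and not on the signal.

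Most tRNA genes without a region still had a candidate. In the ranked whole-experiment list, 479 of 612 genes (78.3%) overlapped a candidate, against 50.8% of all annotated nuclear genes and 81.8% of the far longer protein-coding genes. By the first base of the gene alone, 464 tRNA genes (75.8%, 72.2% to 79.2%) lay in a candidate, against 21.6% of all genes, 52.9% of small nucleolar RNA genes and 24.8% of protein-coding genes. Their strongest overlapping candidates had a median signal of 49.8, against a median of 22.5 over all 91788 candidates. Of the genes' strongest candidates, 92.7% lay above that median, which taking the strongest of several overlapping candidates favours. The 332 genes with a candidate and no region had a median of 40.0 and a maximum of 74.0, and 133 genes had no candidate. In replicate 1, 417 tRNA genes (68.1%) had a candidate, against 41.4% of all genes, and 389 (63.6%) against 13.2% by first base. In replicate 2, 424 (69.3%) had one, against 40.7% of all genes, and 396 (64.7%) against 12.8% by first base. No tRNA gene overlapped a candidate that passed the IDR limit of 0.01 and was missing from the thresholded lists. Over all candidates of the whole-experiment list, 121 of 1104 past this limit were missing from its thresholded list. The count was 123 of 1132 in the conservative list, 97 of 549 in replicate 1 and 68 of 525 in replicate 2. Why these candidates were left out is not known here.

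The replicates shared part of their tRNA genes. Of the 612 genes, 41 had a region in both replicates' lists, 30 in replicate 1 alone, 30 in replicate 2 alone and 511 in neither. Each replicate thus shared 57.7% of its genes with the other, and of the unshared genes 27 of 30 from replicate 1 and 28 of 30 from replicate 2 had a candidate in the other replicate. Over the 342 genes with a candidate in both, Spearman's rho of the signals was 0.614, and over the 96 of them with a region in either list it was 0.391. These are descriptions across genes, which share both libraries and in part their sequences and regions. Of the regions of the whole-experiment list, 37 of 136 at tRNA genes (27.2%, 19.9% to 35.5%) were found in both replicates' lists, against 252 of 832 other regions (30.3%, 27.2% to 33.5%). Fisher's exact test (two-sided) did not separate these shares (adjusted p = 0.544, odds ratio 0.860). Of the regions in replicate 1's own list, 37 of 63 at tRNA genes (58.7%) were in both replicates' lists, against 254 of 385 other regions (66.0%). For replicate 2's list it was 37 of 66 (56.1%) against 253 of 388 (65.2%). These 2 differences were not tested.

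**Figure D3:**
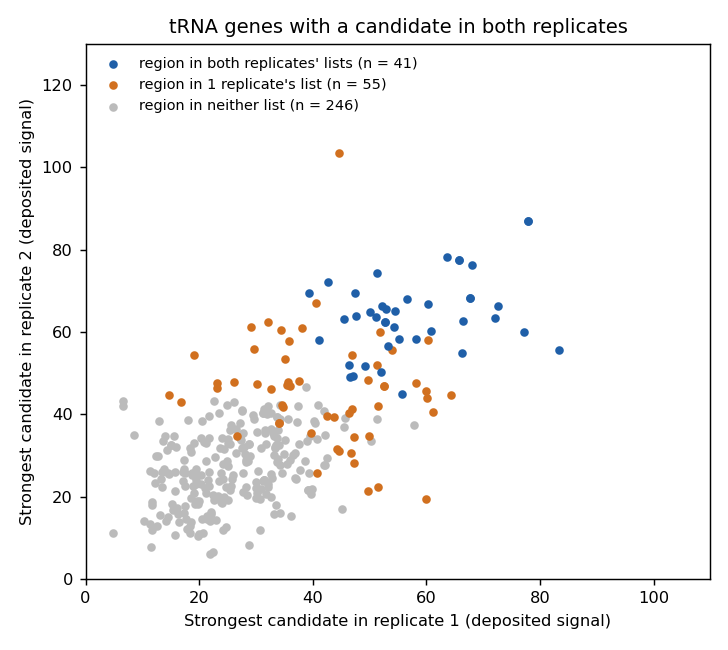
Deposited signal of the strongest candidate overlapping each tRNA gene in replicate 1 (x axis) and in replicate 2 (y axis), for the 342 genes with a candidate in both, coloured by the number of replicates whose thresholded list holds a region at the gene. Genes with a region in both lists lie towards the upper right, and the point highest on the y axis is F41D9.t3 (44.6 in replicate 1, 103 in replicate 2).

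A larger share of the tRNA genes on X than of those on autosomes had a region. In the whole-experiment list it was 77 of 276 on X (27.9%, 22.7% to 33.6%) against 70 of 336 on autosomes (20.8%, 16.6% to 25.6%), a difference of 7.07 percentage points with overlapping intervals. In the replicates' lists it was 44 and 46 genes on X (16.3% ± 0.512) against 27 and 25 on autosomes (7.74% ± 0.421; SD, n = 2 each), and the replicates did not overlap. With 2 replicates and genes that share sequences and regions, the difference was not tested. The autosomes lay between 16.7% (V) and 23.4% (III), differences within the width of their intervals. X held 52.4% of the tRNA genes with a region and 72 of 136 regions at tRNA genes (52.9%), against 179 of 832 other regions (21.5%), beside its 45.1% of all tRNA genes.

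**Figure D4:**
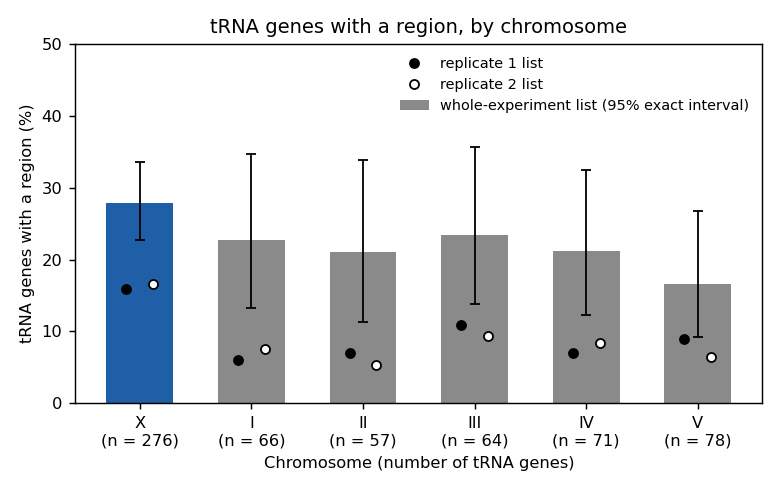
Percentage of tRNA genes with a region (y axis) by chromosome (x axis, with the number of genes). Bars give the whole-experiment list with exact 95% intervals, filled and open circles replicates 1 and 2; the circles for X (15.9% and 16.7%) stand above those of every autosome, while the bars' intervals overlap.

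Genes in introns and genes elsewhere had the same share in the whole-experiment list, to 3 significant digits. A region overlapped 69 of 287 tRNA genes in introns (24.0%, 19.2% to 29.4%) and 78 of 325 genes elsewhere (24.0%, 19.5% to 29.0%). Within X the shares were 26.3% in introns and 28.7% elsewhere, and within autosomes 22.9% in introns and 18.1% elsewhere. In each replicate's list the shares were 9.76% in introns and 13.2% elsewhere. By strand, 35 of 164 genes on the strand of their host (21.3%, 15.3% to 28.4%) and 34 of 122 on the opposite strand (27.9%, 20.1% to 36.7%) had a region. For a gene in an intron, occupancy of the tRNA gene and of a site in its host cannot be told apart. Of the regions at tRNA genes, 51 of 136 (37.5%) had a summit within 1000 bp of the 5′ end of a protein-coding gene, against 361 of 832 other regions (43.4%).

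By amino acid the shares ran from 46.2% for cysteine (6 of 13) to 3.70% for glutamine (1 of 27), among the 20 classes of at least 5 genes. Neighbours in this order had overlapping intervals. In 2 classes the interval left out the 24.0% of all tRNA genes, without adjustment for the number of classes. Glycine had 21 of 55 (38.2%, 25.4% to 52.3%) and glutamine 1 of 27 (3.70%, 0.0937% to 19.0%). In the conservative list glycine had 24 of 55 (43.6%, 30.3% to 57.7%) and again left out that list's share of all tRNA genes, whereas glutamine had 3 of 27 (11.1%, 2.35% to 29.2%) and did not. There cysteine stood apart in its place, with 8 of 13 (61.5%, 31.6% to 86.1%). In each replicate's list no class had an interval that left out that list's own share of 11.6%. The selenocysteine gene and the 5 genes of undetermined amino acid had no region.

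**Figure D5:**
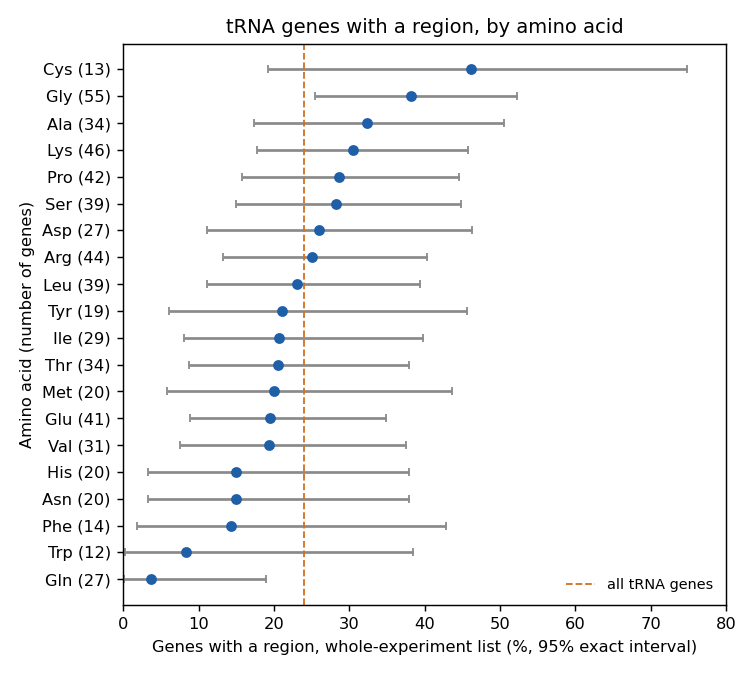
Percentage of tRNA genes with a region in the whole-experiment list (x axis, with exact 95% intervals) by amino acid (y axis, with the number of genes), and the share of all tRNA genes as a dashed line. Glycine (38.2%) and glutamine (3.70%) are the classes whose interval misses the line, and all others cross it.

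Within families of identical genes, the deposited signal differed between copies, though reads that fit several copies leave it uncertain which copy a region belongs to. Of the 29 identical Gly genes, 14 had a region in the whole-experiment list, 7 in replicate 1 and 2 in replicate 2, with signals of 62.0 to 164, and 24 had a candidate. Of the 15 identical alanine genes to which F15G9.t2 and C52E12.t3 belong, 6 had a region, with signals of 51.5 to 143, and those extremes are the regions that these 2 genes share with their neighbours. Of the 15 identical Gln genes to which R04A9.t1 belongs, none had a region in the whole-experiment list (exact upper bound 21.8%), although 12 had a candidate, with a median signal of 51.1. In the conservative list 1 of the 15 had a region, which H08J11.t5 shares with H08J11.t1 of the family of H35N09.t2 and which had a signal of 73.1. Both genes are named here after their values were seen. The 5 identical Gln genes that differ from them by T34C and A68G included the region at H35N09.t2 (34.5 below the threshold in replicate 1, 42.2 in replicate 2), and 4 of the 5 had a candidate. Of the 32 families of at least 5 genes, 31 had a region at 1 or more members in the whole-experiment list.

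Genes with an identical copy had a region more often than genes found once. The shares were 125 of 469 with a copy (26.7%, 22.7% to 30.9%) against 22 of 143 found once (15.4%, 9.90% to 22.4%), and in the replicates' lists 13.2% ± 0.302 against 6.29% ± 0.989 (SD, n = 2). Genes with 2 to 9 copies (27.6%) and with 10 or more (26.2%) had similar shares. Reads that fit several copies may be placed at any of them or dropped, and the authors' treatment of such reads is not known here, so a region at 1 copy is uncertain as to the copy. None of the 22 genes whose 50 bp upstream recur in the genome had a region (exact upper bound 15.4%), against 147 of the 590 with a unique upstream flank (24.9%). The part of read placement in these shares was not tested. In the whole-experiment list 24.1% of the 170 genes within 500 bp of another tRNA gene and 24.0% of the 442 others had a region. The replicates ran in opposite directions, with 15.9% of clustered against 9.95% of lone genes in replicate 1, and 9.41% against 12.4% in replicate 2.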

How the data were processed

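MXL-2 ChIP-seq peak lists of 2 biological replicates, 1 group, were used as deposited on ce11, with chromatin sonicated to 200 to 800 bp per the labels' protocols. The authors' signal column holds each candidate's enrichment, and each ranked list gives its IDR as a deposited −log10 value. For the aligner, the peak caller and the treatment of reads with several matches, the sources used here give no name. The members, lists and motifs were chosen with earlier results of these data known, and GTTCNA and the 12-letter A box consensus were added after seeing the data.

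Overlapping lines were joined, keeping the strongest summit. Genes, introns and biotypes came from Ensembl release 115, amino acids from RefSeq by WormBase identifier (all 612 matched). An overlap of 1 bp counted. Motifs were searched on both strands around summits and on the gene strand in genes. Genes named are the 10 strongest, the strongest per amino acid, the 5 weakest with a region and the 5 strongest without. Fisher's exact test was applied to 2 comparisons over regions. Alternatives were the conservative list, each replicate, other overlaps, windows and limits, and unique sequences. The overlap search, the joining of lines, the motif search and Fisher's exact test were tested on simulated data. Tools were Python 3.11.15, pandas 2.3.3, NumPy 2.4.6, SciPy 1.17.1, statsmodels 0.14.6 and matplotlib 3.10.9.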

Additional observations from a re-analysis of the deposited data

How the results depend on the processing

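No paired analysis was possible because the series holds 1 group. The count of 147 tRNA genes with a region was 141 to 213 when another overlap rule, the conservative list or an IDR limit of 0.05 was used, 71 in each replicate's own list and 76 with the 50% of regions of higher signal. The share of 24.0% was 15.4% among sequences found once. The share on X minus that on autosomes, 7.07 percentage points, was 7.91 to 9.23 in the replicates' lists, and 12.7 when genes within 500 bp of each other counted once. It stayed positive in all 7 alternatives run. The share in introns minus elsewhere, 0.0418 points, has no stable sign. It was 3.18 in the conservative list, -3.47 in each replicate's list, -0.696 for summits within 100 bp, -2.66 for host genes on the same strand, -2.41 on X and 4.86 on autosomes. The median summit position of 24.5 bp was 17 to 24 bp in the replicates' lists. Spearman's rho of 0.614 between replicates was 0.391 among genes with a region in either. The 2 amino acid classes that stood apart were 0 in either replicate's list, and in the conservative list, an alternative chosen after seeing the data, they were Cys and Gly in place of Gln and Gly. Both comparisons by Fisher's exact test kept their direction and their side of the threshold of 0.05 in the alternatives run (6 for CACGTG, 2 for presence in both replicates' lists). Depth is unknown, so the causes of these shifts were not tested, and shorter lists hold fewer genes by construction.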
